A study of Homo sapiens with 12 samples.

Results

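EGR1, KLF4, KLF5, KLF6, KLF10, IER2, IER3, IER5 and ARC are immediate-early genes, whose transcription starts without new protein synthesis when a cell meets a growth factor, a stress or another stimulus. The 9 genes were chosen by name, with earlier results of these data known. All 9 were found, by gene symbol, among 16599 genes of the count table and among the 15991 genes that entered the tests. Their levels were followed in polyadenylated RNA of A549 and H1650, established human lung cancer lines derived from adenocarcinomas, with 3 libraries in each of 4 groups. The groups were H1650 cells over-expressing SRSF2 and untreated H1650 cells, and A549 cells over-expressing SRSF2 and untreated A549 cells. SRSF2 is a serine/arginine-rich splicing factor. Titles of the untreated libraries hold the abbreviation NC without an explanation, so whether these cells received an empty construct is not known. The construct, its promoter, the time after its introduction and whether cells were 1 clone or a pool are not given in the sources used here. Over-expression is given as labelled: it was not checked, because SRSF2 RNA was not analysed here.

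EGR1 is a zinc finger transcription factor that binds GC-rich DNA and is itself switched on by serum response factor (SRF) and its partners of the ELK and MRTF families. The KLF genes encode zinc finger factors that bind GC-rich and CACCC sequences. KLF4 and KLF5 act in epithelial cells, where KLF5 is mainly linked to proliferation and KLF4 to differentiation, KLF6 was described as a growth-suppressing factor, and KLF10 is induced early by TGF-beta. IER2 and IER5 encode related nuclear proteins, of which IER5 takes part in heat shock factor activity, and IER3 encodes a stress-inducible regulator of cell survival. ARC is best known from neurons, where its capsid-forming protein acts at synapses. Messenger RNAs of this class are mostly short-lived, so their levels follow both transcription and decay, which polyadenylated RNA does not separate.

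The promoters of 6 of the 9 genes were found in the RefSeq table of GRCh38.p14, in 7 windows of 300 bases, since KLF5 had 2 starts. The stretches below are the 250 bases before the annotated start, 5′ to 3′ on the strand of the gene. They are shown for the sequence elements they carry, and a link of these elements to the levels was not tested. Capitals mark CArG boxes (the SRF-binding element), the core TGACG of the CRE (the element bound by CREB), the CCAAT box, the EGR site GCGGGGGCG and the heat shock element GAANNTTC, each read on either strand, so CGTCA and ATTGG are matches on the opposite strand. EGR1 lies at chr5:138465229-138465478 (plus strand), KLF4 at chr9:107489770-107490019 (minus strand), the second KLF5 start at chr13:73058755-73059004 (plus strand), KLF6 at chr10:3785210-3785459 (minus strand) and IER5 at chr1:181088450-181088699 (plus strand).
EGR1: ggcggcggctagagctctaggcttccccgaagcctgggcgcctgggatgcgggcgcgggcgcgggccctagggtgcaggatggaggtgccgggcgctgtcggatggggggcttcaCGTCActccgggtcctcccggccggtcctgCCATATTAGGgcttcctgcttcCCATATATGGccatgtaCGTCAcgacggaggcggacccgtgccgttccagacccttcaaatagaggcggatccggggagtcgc
KLF4: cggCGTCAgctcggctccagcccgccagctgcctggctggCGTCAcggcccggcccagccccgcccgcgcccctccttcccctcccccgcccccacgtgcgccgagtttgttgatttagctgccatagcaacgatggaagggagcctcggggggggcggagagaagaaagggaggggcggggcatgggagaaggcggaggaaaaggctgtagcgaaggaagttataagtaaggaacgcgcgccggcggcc
KLF5: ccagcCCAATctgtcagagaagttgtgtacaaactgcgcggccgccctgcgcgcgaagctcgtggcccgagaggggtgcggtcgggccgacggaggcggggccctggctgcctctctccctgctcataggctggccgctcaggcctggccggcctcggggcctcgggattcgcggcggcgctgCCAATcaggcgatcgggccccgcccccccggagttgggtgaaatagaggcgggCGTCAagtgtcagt
KLF6: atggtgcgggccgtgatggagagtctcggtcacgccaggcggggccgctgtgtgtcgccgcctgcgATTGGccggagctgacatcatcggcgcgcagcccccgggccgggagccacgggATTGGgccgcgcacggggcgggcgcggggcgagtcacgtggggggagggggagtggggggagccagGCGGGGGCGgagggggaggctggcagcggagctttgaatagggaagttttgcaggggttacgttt
IER5: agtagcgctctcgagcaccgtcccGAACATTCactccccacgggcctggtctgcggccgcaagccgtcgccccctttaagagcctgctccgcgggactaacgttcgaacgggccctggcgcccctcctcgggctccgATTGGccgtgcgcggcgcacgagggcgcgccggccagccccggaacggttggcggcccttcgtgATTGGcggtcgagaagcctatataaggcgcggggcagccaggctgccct

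EGR1 had 2 CArG boxes, at -105 to -96 and -83 to -74 from its start, and of 35116 promoter windows searched 1.29% held a CArG box. It also had 2 CRE core sites, an element found in 24.55% of all windows. KLF4 had 2 CRE core sites and 4 GC boxes (GGGCGG, in 44.95% of windows). IER2, whose sequence is not shown, had 1 CRE core site, 4 GC boxes and 1 CACCC box (CCACCC, in 34.29%). KLF6 had the EGR site at -65 to -57, in 5.07% of windows, where it overlapped 1 of its 2 GC boxes, and 2 CCAAT boxes (34.61%). IER5 had a heat shock element at -226 to -219, in 6.77% of windows, and 2 CCAAT boxes. The second KLF5 start had 1 CRE core site, 2 CCAAT boxes and 2 GC boxes. At the other KLF5 start the TATA box letters TATAAA (in 11.53%) lay at -194 to -189. Only these exact letters were searched for, so other forms of the TATA box were not counted. No window of the 6 genes held a full CRE (cyclic AMP response element, TGACGTCA, in 1.85%), an AP-1 site (TGANTCA, in 7.71%) or the EGR site GCGTGGGCG (in 0.79%). A match of letters describes the sequence and is not a measured binding site.

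Total counts ran from 23876899 to 32079027 per library, and 3 counts corresponded to 0.0935 to 0.126 CPM (counts per 1e6 counts) by plain totals. CPM values given here are scaled to totals corrected by TMM, a factor that balances library composition, and are means ± SD of 3 libraries. The labels do not say whether libraries of a group came from separate cultures, so each p-value reflects variation among libraries only, which may be technical. The H1650 SRSF2 group varied most, with a common biological coefficient of variation of 0.0559, against 0.0298 to 0.0344 in the other groups. The model shared its estimate of spread over the 4 groups. The standard errors (SE) of comparisons with H1650 SRSF2 libraries may therefore be too small. Of the epithelial markers, 7 of 7 were in the table, with summed levels of 10280 to 10840 CPM in H1650 SRSF2, 10780 to 10980 in untreated H1650, 9502 to 9581 in A549 SRSF2 and 9823 to 10460 in untreated A549 libraries. In A549, EPCAM (3.72 CPM with SRSF2 and 5.72 untreated), CDH1 (26.2 and 38.2 CPM) and CLDN4 (5.26 and 4.36 CPM) were low. KRT19 was also lower in untreated A549 (97.9 CPM) than in untreated H1650 cells (1304 CPM). The other keratins were higher in untreated A549 than in untreated H1650 cells. KRT7 averaged 2807 CPM in A549 and 1997 in H1650, KRT8 5008 in A549 and 4213 in H1650, and KRT18 1884 in A549 and 1125 in H1650. Of fibroblast markers, COL1A1 and COL3A1 (2 of 7) summed to 19.1 to 20.6 CPM in H1650 SRSF2, 21.4 to 22.7 in untreated H1650, 8.63 to 10.3 in A549 SRSF2 and 12.3 to 14.99 in untreated A549 libraries. Of leukocyte markers, CD14 and CD79A (2 of 6) summed to 0.343 to 6.93 CPM over the 12 libraries, and the remaining genes of these lists and the 4 endothelial genes were not analysed here.

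In H1650, 8 of the 9 genes were higher with SRSF2 over-expression and KLF5 was lower. By their estimates the 8 rises were all above 1 on the log2 scale, that is more than a doubling in linear terms, and ARC and KLF4 moved most. The IER3 rise of 1.08 did not pass a test against a log2 change of 1 (edgeR adjusted p = 0.119). Together the 9 genes took 3080, 2894 and 2491 CPM in the SRSF2 libraries, against 911.4, 907.8 and 889.0 CPM in untreated libraries. Among all genes tested, 62.3% were called in this line, 31.0% higher and 31.3% lower, called meaning an edgeR adjusted p under 0.05, and 7.27% were called with a rise of at least 1 on the log2 scale. The median log2 fold change was 1.33 over the 9 genes and 0.00 over all genes. For each of the 8 genes that rose, every SRSF2 library lay above every untreated library, and for KLF5 every one lay below. Such separation was seen upward in 32.1% and downward in 32.6% of all genes. In bulk RNA a larger share of cells with the transcript and more transcript per cell cannot be told apart.

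**Figure D1:**
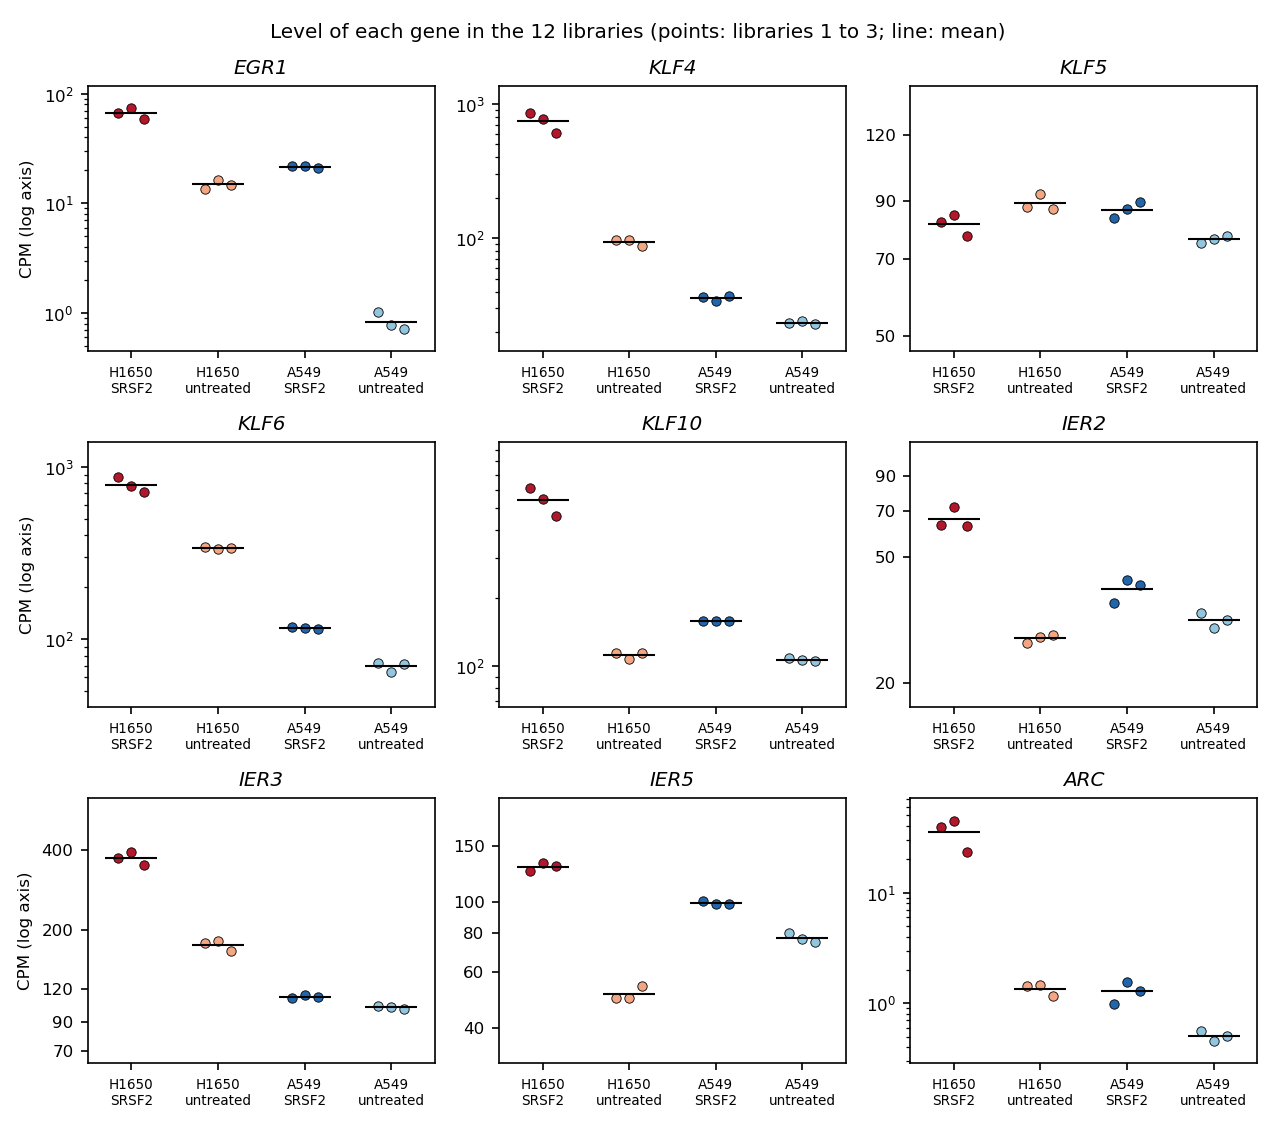
Level of each of the 9 genes in CPM on a log axis, with 1 panel per gene, the 4 groups from left to right and 1 point per library (replicates 1 to 3 from left to right), the line marking the mean of 3. KLF4 averaged 744.8 CPM in H1650 SRSF2 libraries and 94.0 in untreated H1650 libraries, while KLF5 stayed between 74.9 and 92.7 CPM in all 12 libraries.

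EGR1 (ENSG00000120738, GRCh38 chromosome 5, 138465490 to 138469315) gave 67.2, 73.3 and 59.2 CPM in H1650 SRSF2 libraries, against 13.5, 16.2 and 14.8 CPM in untreated H1650 libraries. The groups did not overlap, and the log2 fold change was 2.16 (SE 0.07, edgeR adjusted p = 3.21e-23). EGR1 thus already stood at about 15 CPM in H1650 cells without over-expression, or 421 to 484 counts a library.

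KLF4 (ENSG00000136826, chromosome 9, 107484852 to 107490482) gave 852.1, 769.0 and 613.2 CPM in H1650 SRSF2 libraries, against 97.5, 97.4 and 87.1 CPM in untreated libraries. The log2 fold change was 2.99 (SE 0.07, edgeR adjusted p = 4.75e-28), a 7.92-fold difference. Its SE was 0.081 with only the 6 H1650 libraries in the fit and 0.114 with DESeq2. By mean CPM, KLF4 ranked 155 of the 15991 genes in H1650 SRSF2 cells and 2649 in untreated H1650 cells. Its gain of 650.8 CPM was the largest of the 9 genes.

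KLF6 (ENSG00000067082, chromosome 10, 3775996 to 3785281) gave 869.1, 775.2 and 715.0 CPM with SRSF2 and 341.4, 331.9 and 335.5 CPM without (log2 1.23, SE 0.05, edgeR adjusted p = 1.28e-21). It had the highest CPM of the 9 genes in both H1650 groups. KLF10 (ENSG00000155090, chromosome 8, 102648779 to 102655902) gave 608.8, 548.4 and 458.0 CPM with SRSF2, against 114.0, 108.1 and 113.8 CPM without (log2 2.27, SE 0.06, edgeR adjusted p = 9.37e-27). For KLF10 the SE was 0.069 with only the 6 H1650 libraries and 0.085 with DESeq2. Neither gene showed any overlap between groups, and both had their lowest SRSF2 value in replicate 3.

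Unlike KLF4, KLF6 and KLF10, KLF5 (ENSG00000102554, chromosome 13, 73054976 to 73077542) did not rise in H1650, with 82.1, 84.6 and 77.4 CPM in H1650 SRSF2 libraries, against 87.8, 92.7 and 86.9 CPM in untreated ones. The fall was small (log2 -0.13, SE 0.05, edgeR adjusted p = 0.0105) and the groups were close without overlapping. The call was lost without untreated H1650 replicate 2 (log2 -0.11, edgeR adjusted p = 0.0628) and without H1650 SRSF2 replicate 3 (log2 -0.10, edgeR adjusted p = 0.0636).

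The 3 IER genes rose by similar amounts in H1650. IER2 (ENSG00000160888, chromosome 19, 13150415 to 13154908) gave 63.2, 72.3 and 62.9 CPM with SRSF2, against 26.8, 27.9 and 28.4 CPM without (log2 1.26, SE 0.06, edgeR adjusted p = 1.58e-18). IER3 (ENSG00000137331, chromosome 6, 30743199 to 30744554) gave 374.1, 394.3 and 352.2 CPM with SRSF2, against 179.3, 182.4 and 167.1 CPM without (log2 1.08, SE 0.04, edgeR adjusted p = 7.04e-22). IER5 (ENSG00000162783, chromosome 1, 181088712 to 181092899) gave 124.6, 132.5 and 130.0 CPM with SRSF2, against 49.7, 49.7 and 54.3 CPM without (log2 1.33, SE 0.05, edgeR adjusted p = 3.08e-23). For each of these genes the lowest SRSF2 library exceeded the highest untreated library by a wide margin. In GENCODE 29 the genomic span of IER2 shares 1123 bases with that of the antisense gene AC011446.2, and the span of IER3 shares 394 with IER3-AS1. Neither antisense gene was in the count table. Whether the counting used strand is not stated. How reads of the shared stretches were assigned is thus not known, and they may be mixed.

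ARC (ENSG00000198576, chromosome 8, 142611044 to 142614472) gave 38.9, 44.8 and 23.3 CPM in H1650 SRSF2 libraries, against 1.45, 1.47 and 1.16 CPM in untreated H1650 libraries. The untreated values rest on 45, 44 and 35 counts. The log2 fold change of 4.70 (SE 0.19, edgeR adjusted p = 2.73e-21) was the 12th highest of the 15991 genes. ARC was also the most variable of the 9 genes in the SRSF2 group, with a coefficient of variation of 31.2%, against 3.22% from counting alone.

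In replicate 3 of the H1650 SRSF2 group, the deepest library, 8 of the 9 genes were below the mean of replicates 1 and 2, with IER5 the exception at a ratio of 1.01. The ratio was 0.556 for ARC, 0.757 for KLF4, 0.792 for KLF10, 0.843 for EGR1, 0.870 for KLF6 and 0.917 to 0.929 for IER3, IER2 and KLF5. Genes with the larger rises thus tended to have the lower ratio, and KLF5, which did not rise, also lay below 1. Without this library the log2 fold changes in H1650 were 4.94 for ARC, 3.11 for KLF4, 2.37 for KLF10 and 2.24 for EGR1, and their calls were kept. Over all genes the 3 libraries of this group all differed, with a chi-square per degree of freedom of 7.78 between replicates 1 and 3, 5.68 between 1 and 2 and 5.11 between 2 and 3, so replicate 3 was not alone in standing apart. Low ratios also occurred in untreated libraries, at 0.794 for ARC and 0.894 for KLF4 in untreated H1650 cells and 0.800 for EGR1 in untreated A549 cells.

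**Figure D2:**
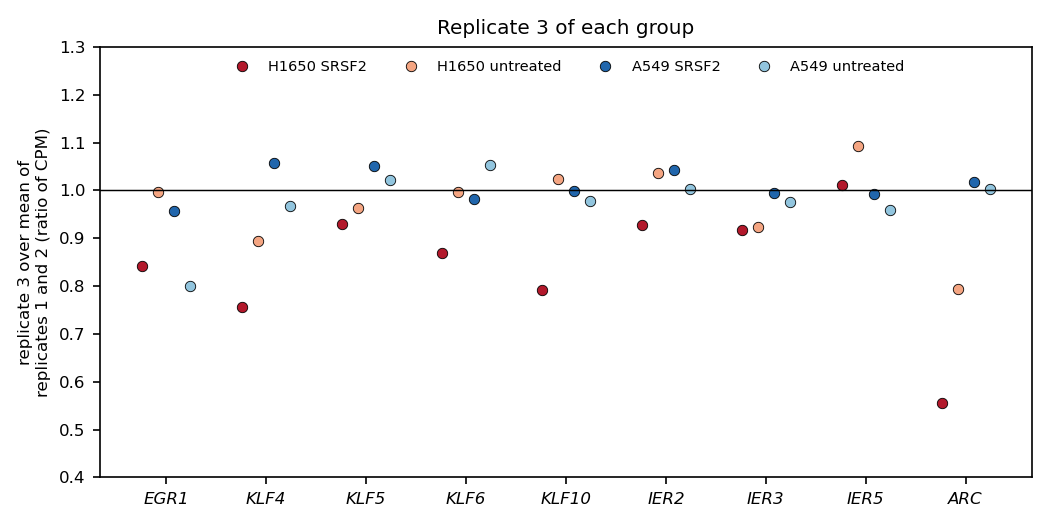
Ratio of replicate 3 to the mean of replicates 1 and 2 in CPM (vertical axis) for each of the 9 genes, with 1 point per group. In H1650 SRSF2 cells the ratio was below 1 for every gene but IER5 and lowest for ARC (0.556), while in A549 SRSF2 cells it lay between 0.958 for EGR1 and 1.06 for KLF4, and in untreated cells the lowest ratios were 0.794 for ARC in H1650 and 0.800 for EGR1 in A549.

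In A549, all 9 genes were higher with SRSF2 over-expression, but apart from EGR1 and ARC by less than 1 on the log2 scale. EGR1 had the second highest log2 fold change of all genes in this line. The summed level of the 9 genes was 665.9, 672.2 and 672.6 CPM in SRSF2 libraries, against 496.6, 481.7 and 485.7 CPM in untreated libraries. Of all genes 32.3% were called, 16.4% higher and 15.9% lower, and 1.75% were called with a rise of at least 1 on the log2 scale. The median log2 fold change was 0.57 over the 9 genes and 0.00 over all genes. In all 9 genes the libraries of the groups did not overlap, a pattern seen upward in 22.7% of all genes.

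EGR1 gave 21.8, 22.1 and 21.0 CPM in A549 SRSF2 libraries, against 1.01, 0.778 and 0.716 CPM in untreated A549 libraries. The untreated values come from 29, 22 and 21 counts, and the SRSF2 values from 533, 635 and 535. The log2 fold change was 4.69 (SE 0.14, edgeR adjusted p = 1.79e-23), with a counting error of 0.17 on the log2 scale that exceeds the fitted SE. On log2(FPKM + 1), which compresses low levels, it was 2.47 (limma-trend adjusted p = 8.24e-08).

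Among the KLF genes, KLF6 gave 117.3, 116.0 and 114.5 CPM in A549 SRSF2 libraries, against 72.4, 64.2 and 71.9 CPM in untreated ones (log2 0.74, SE 0.05, edgeR adjusted p = 3.06e-13). KLF4 gave 36.4, 34.1 and 37.3 CPM with SRSF2 and 23.3, 24.2 and 23.0 CPM without (log2 0.61, SE 0.09, edgeR adjusted p = 9.05e-07). These 2 genes kept clear gaps between groups although their rises were modest. KLF10 gave 158.8, 157.6 and 158.0 CPM with SRSF2, against 108.2, 107.0 and 105.4 CPM without (log2 0.57, SE 0.06, edgeR adjusted p = 1.62e-09). KLF5 gave 83.6, 86.8 and 89.7 CPM with SRSF2, against 74.9, 76.4 and 77.2 CPM without (log2 0.19, SE 0.05, edgeR adjusted p = 0.00149). KLF5 thus was higher in A549 and lower in H1650, by small amounts in both lines.

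The IER genes showed small rises in A549. IER5 gave 100.4, 98.2 and 98.5 CPM with SRSF2, against 79.5, 76.3 and 74.7 CPM without (log2 0.37, SE 0.04, edgeR adjusted p = 5.05e-08). IER2 gave 35.8, 42.4 and 40.8 CPM with SRSF2, against 33.3, 29.8 and 31.6 CPM without (log2 0.33, SE 0.06, edgeR adjusted p = 0.000116). IER3 gave 110.9, 113.4 and 111.6 CPM with SRSF2, against 103.4, 102.5 and 100.6 CPM without (log2 0.13, SE 0.04, edgeR adjusted p = 0.0176). The IER3 call did not hold under every setting: the adjusted p was 0.0571 with DESeq2, 0.0531 and 0.0528 on log2 FPKM with pseudocounts of 1 and 0.1, 0.0693 without untreated A549 replicate 3 and 0.0709 without A549 SRSF2 replicate 2.

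ARC was low in A549, with 0.981, 1.57 and 1.29 CPM in SRSF2 libraries (24, 45 and 33 counts), against 0.558, 0.459 and 0.511 CPM in untreated libraries (16, 13 and 15 counts). The log2 fold change was 1.34 (SE 0.40, edgeR adjusted p = 0.00968). The call was lost without A549 SRSF2 replicate 2 (log2 1.16, edgeR adjusted p = 0.0651) and on log2(FPKM + 1) (0.21, limma-trend adjusted p = 0.366).

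The responses of the lines differed for all 9 genes in a test of the difference itself, which called 47.5% of all genes (23.5% with the higher log2 response in H1650 and 24.0% with the lower). For 7 of the 9 the log2 fold change was higher in H1650. The difference was 3.37 for ARC (SE 0.54, edgeR adjusted p = 3.01e-06), 2.37 for KLF4 (SE 0.11, edgeR adjusted p = 1.31e-18) and 1.70 for KLF10 (SE 0.08, edgeR adjusted p = 2.85e-18). The IER genes differed alike, by 0.97 for IER5, 0.95 for IER3 and 0.92 for IER2, and KLF6 by 0.49, with edgeR adjusted p of at most 5.38e-07. The median difference was 0.95 over the 9 genes and -0.01 over all genes.

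EGR1 and KLF5 went the other way. For EGR1 the log2 response was 2.16 in H1650 and 4.69 in A549, a difference of -2.53 (SE 0.18, edgeR adjusted p = 9.59e-14). In CPM the gain of EGR1 was nonetheless larger in H1650, at 51.7 CPM, against 20.8 CPM in A549, with untreated levels of 14.8 CPM in H1650 and 0.835 CPM in A549. On log2(FPKM + 1) the difference was -0.64 (limma-trend adjusted p = 0.000408). For KLF5 the difference was -0.32 (SE 0.06, edgeR adjusted p = 8.15e-05), with a lower level after over-expression in H1650 and a higher one in A549.

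**Figure D3:**
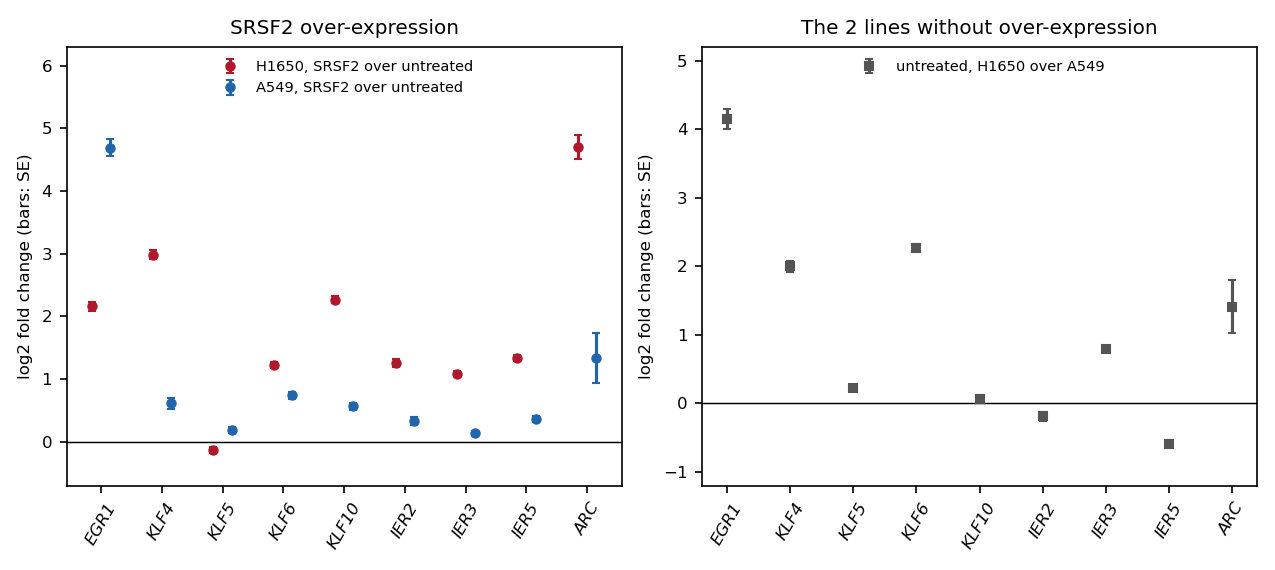
Left, log2 fold change of SRSF2 over untreated cells (vertical axis) for each gene in H1650 (red) and A549 (blue), with bars for the SE. Right, log2 fold change of untreated H1650 over untreated A549 cells. EGR1 had the higher response in A549 (4.69, against 2.16 in H1650) and ARC in H1650 (4.70, against 1.34 in A549), and untreated EGR1 differed most between the lines on this scale (4.15).

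Without over-expression the lines already differed in most of these genes, with 6 higher in H1650, 2 lower and KLF10 not called. The background here was high, since 82.4% of all genes were called, 40.1% higher and 42.3% lower in untreated H1650 than in untreated A549 cells. The libraries of each of the 8 called genes did not overlap, as for 40.9% of all genes upward and 43.1% downward. EGR1 averaged 14.8 ± 1.34 CPM in untreated H1650 and 0.835 ± 0.156 CPM in untreated A549 cells (log2 4.15, SE 0.14, edgeR adjusted p = 5.69e-24), and the log2 fold change was 1.99 on log2(FPKM + 1). Here too the counting error, 0.17 on the log2 scale, exceeded the fitted SE. KLF6 averaged 336.3 ± 4.81 CPM in untreated H1650 and 69.5 ± 4.61 CPM in untreated A549 cells (log2 2.27, SE 0.05, edgeR adjusted p = 1.90e-29). On the log2 scale these were the widest gaps of the 9 genes, while in CPM the gap of EGR1 (14.0 CPM) was below those of KLF6, IER3, KLF4 and IER5. The untreated H1650 level of KLF6 was above that of A549 cells with SRSF2 (115.9 ± 1.41 CPM).

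KLF4 averaged 94.0 ± 5.95 CPM in untreated H1650 and 23.5 ± 0.648 CPM in untreated A549 cells (log2 2.00, SE 0.08, edgeR adjusted p = 3.09e-22). For IER3 the values were 176.3 ± 8.08 CPM in H1650 and 102.2 ± 1.44 CPM in A549 (log2 0.79, SE 0.04, edgeR adjusted p = 2.50e-18). KLF5 was slightly higher, at 89.1 ± 3.14 CPM in H1650 and 76.2 ± 1.17 CPM in A549 (log2 0.23, SE 0.05, edgeR adjusted p = 2.36e-05). All libraries of these genes were higher in H1650, as they were for ARC. ARC stood at 1.36 ± 0.174 CPM in untreated H1650 and 0.5096 ± 0.0495 CPM in untreated A549 cells (log2 1.41, SE 0.39, edgeR adjusted p = 0.00126), a call lost on log2(FPKM + 1) (limma-trend adjusted p = 0.218). IER5 and IER2 ran the other way. IER5 averaged 51.2 ± 2.65 CPM in untreated H1650 and 76.9 ± 2.43 CPM in untreated A549 cells (log2 -0.59, SE 0.05, edgeR adjusted p = 8.34e-14). IER2 averaged 27.7 ± 0.802 CPM in untreated H1650 and 31.5 ± 1.75 CPM in untreated A549 cells (log2 -0.19, SE 0.07, edgeR adjusted p = 0.00932), and this call was lost without untreated A549 replicate 1 (adjusted p = 0.0733 by edgeR) or untreated H1650 replicate 1 (adjusted p = 0.0508 by edgeR). KLF10 was close, at 112.0 ± 3.33 CPM in untreated H1650 and 106.9 ± 1.43 CPM in untreated A549 cells with overlapping libraries (log2 0.07, SE 0.06, edgeR adjusted p = 0.287). With SRSF2 these 3 genes had higher means in H1650 than in A549, a comparison that was not tested. KLF10 averaged 538.4 ± 75.9 CPM in H1650 SRSF2 and 158.1 ± 0.629 CPM in A549 SRSF2 cells, IER2 66.1 ± 5.35 CPM in H1650 and 39.7 ± 3.42 CPM in A549, and IER5 129.1 ± 4.04 CPM in H1650 and 99.0 ± 1.17 CPM in A549.

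Levels of different genes were compared per kilobase of exon (union of GENCODE 29 exons). On this scale IER3 was first and ARC last in all 4 groups, at 275.5 ± 15.5 CPM per kb for IER3 and 11.9 ± 3.72 for ARC in H1650 SRSF2 cells, and 75.3 ± 1.06 for IER3 and 0.170 ± 0.0165 for ARC in untreated A549 cells. KLF4 had place 2 in H1650 SRSF2 cells (203.5 ± 33.2 CPM per kb), place 4 in untreated H1650 cells (25.7 ± 1.63) and place 7 in both A549 groups (9.83 ± 0.449 with SRSF2 and 6.43 ± 0.177 untreated). Several neighbours did not differ beyond their spread: in H1650 SRSF2 cells KLF10 and KLF6 (134.5 ± 19.0 and 128.1 ± 12.7 CPM per kb), and IER2, EGR1 and KLF5 (21.5 ± 1.74, 21.2 ± 2.25 and 20.9 ± 0.933). In untreated A549 cells this held for KLF6 and IER2 (11.3 ± 0.751 and 10.3 ± 0.570 CPM per kb). The deposited FPKM values use other lengths, except for IER3, where the length (1356 bases) equals the exon length used here. For EGR1, KLF4, KLF6, KLF10 and IER2 they equal the genomic span, introns included. The gap was widest for KLF5, with 22563 bases against 3893 of exon here, and the length was 2340 against 4188 for IER5 and 4429 against 2991 for ARC. By FPKM, KLF5 was last in H1650 SRSF2 cells, at 3.28 to 3.55, below ARC at 5.02 to 9.58, so the order of the genes depends on the lengths used.

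Other immediate-early genes were also mostly higher with SRSF2. Of 27 tested, 24 were called higher and 1 lower in H1650 (median log2 1.16), against 31.0% and 31.3% of all genes. In A549, 21 were called higher and 1 lower (median 0.55), against 16.4% and 15.9% of all genes. JUNB, FOSB and DUSP1 of that list were not analysed here. PPP1R15A, which directs a phosphatase to the translation factor eIF2-alpha, averaged 843.6 ± 147.5 CPM in H1650 SRSF2 and 87.7 ± 4.44 in untreated H1650 cells (log2 3.27, SE 0.08). In A549 PPP1R15A averaged 236.4 ± 13.1 CPM with SRSF2 and 45.2 ± 3.76 CPM in untreated cells (log2 2.39, SE 0.08). ATF3, a stress-induced factor, rose by log2 3.40 in H1650 and 3.23 in A549, a difference of 0.17 that did not pass the test (SE 0.17, edgeR adjusted p = 0.432). The AP-1 genes JUN (log2 2.68 in H1650 and 1.04 in A549) and FOSL1 (2.15 in H1650 and 0.98 in A549), and the small MAF factor MAFF (2.20 in H1650 and 1.32 in A549), rose more in H1650 (edgeR adjusted p of the difference at most 4.14e-09). ZFP36, which binds AU-rich messenger RNA and speeds its decay, rose in H1650 (log2 1.82, SE 0.05, edgeR adjusted p = 1.02e-25) and was at log2 0.12 in A549 (edgeR adjusted p = 0.125). The genes that fell were CCN2 in H1650 (-0.18) and IER5L in A549 (-0.92), named after their values were seen.

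**Figure D4:**
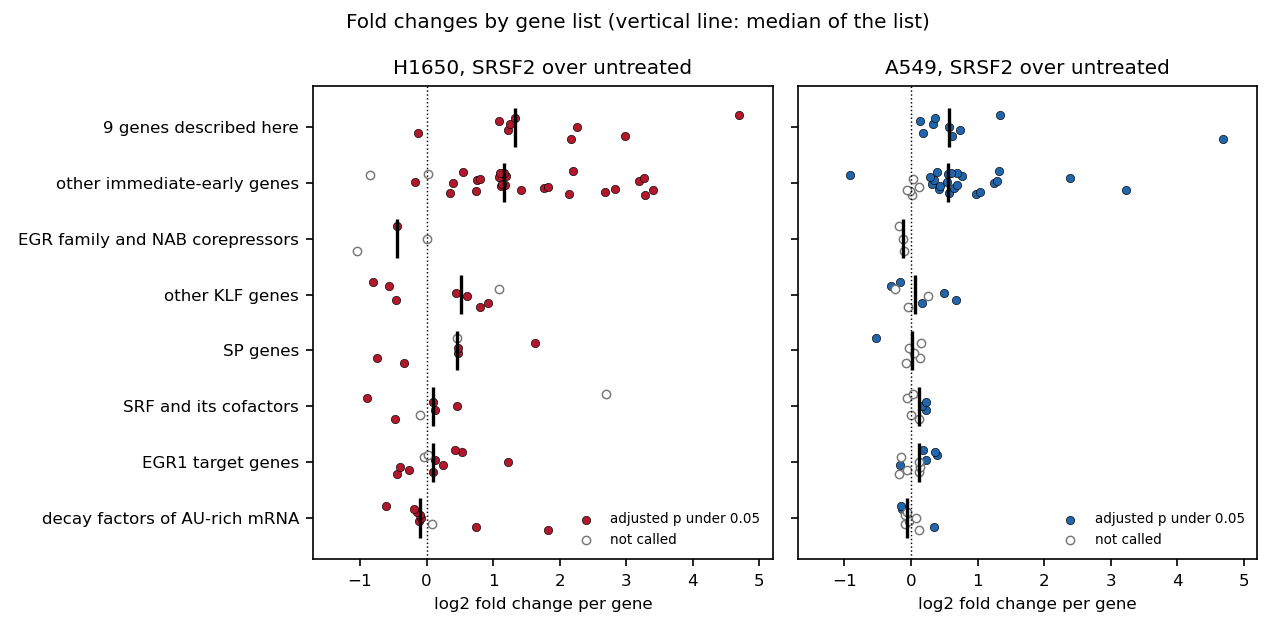
Log2 fold change of each tested gene (horizontal axis) in the 9 genes described here and in 7 related lists, for H1650 (left) and A549 (right), with filled points for an edgeR adjusted p under 0.05 and a vertical line at the median of the list. The 9 genes and the other immediate-early genes had medians of 1.33 and 1.16 in H1650, against 0.57 and 0.55 in A549, while the medians of the 6 other lists drawn (the heat shock genes are not among them) lay between -0.45 and 0.52 in H1650 and between -0.12 and 0.13 in A549.

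The remaining KLF genes moved in both directions. Of 8 tested, 4 were called higher and 3 lower in H1650 (median log2 0.52), against 31.0% and 31.3% of all genes. In A549, 3 were called higher and 2 lower (median 0.06), against 16.4% and 15.9% of all genes. KLF3 rose in both lines (log2 0.93 in H1650 and 0.17 in A549), as did KLF11 (0.44 in H1650 and 0.49 in A549). KLF13 fell in both (-0.56 in H1650 and -0.30 in A549), as did KLF16 (-0.81 in H1650 and -0.17 in A549). KLF7 fell in H1650 (-0.47) and rose in A549 (0.68), with a difference of -1.15 (SE 0.07, edgeR adjusted p = 4.81e-15). KLF2 rose in H1650 (0.81) and was at -0.05 in A549 (edgeR adjusted p = 0.803). Adjusted p-values of the calls in this paragraph were at most 0.039 by edgeR. Of 6 SP genes, the closest relatives of the KLF family, 3 were called higher and 2 lower in H1650 and 0 higher and 1 lower in A549. The shares of all genes given above apply here too. SP6 averaged 257.4 ± 23.0 CPM in H1650 SRSF2 and 83.2 ± 3.29 CPM in untreated H1650 cells (log2 1.63, SE 0.06, edgeR adjusted p = 3.88e-23).

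Upstream of EGR1, SRF and its cofactors moved in both directions in H1650. Of 7 genes, 3 were called higher and 2 lower there, among 62.3% of all genes called, and 3 were higher and 0 lower in A549, where 32.3% of all genes were called. SRF averaged 100.4 ± 1.63 CPM in H1650 SRSF2 and 139.0 ± 8.43 CPM in untreated H1650 cells (log2 -0.47, SE 0.05, edgeR adjusted p = 3.69e-11). MRTFB, a cofactor of SRF controlled by actin, averaged 69.96 ± 3.05 CPM in H1650 SRSF2 and 130.8 ± 3.10 CPM in untreated H1650 cells (log2 -0.90, SE 0.04, edgeR adjusted p = 9.29e-19). ELK4, a partner of SRF, averaged 80.4 ± 1.80 CPM in H1650 SRSF2 and 58.6 ± 1.44 CPM in untreated H1650 cells (log2 0.46, SE 0.05, edgeR adjusted p = 3.30e-10), and ELK3 (log2 0.12) and MRTFA (0.09) also rose (edgeR adjusted p at most 0.0499). In A549, SRF was at log2 0.13 (edgeR adjusted p = 0.0528) and ELK3 and MRTFA rose by 0.23 each (edgeR adjusted p at most 0.000161).

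Of 11 known targets of EGR1, 6 were called higher and 3 lower in H1650 (median log2 0.10), against 31.0% and 31.3% of all genes. In A549, 4 were called higher and 1 lower (median 0.12), against 16.4% and 15.9% of all genes. Whether EGR1 acted on them here was not tested. CD44, a hyaluronan receptor, rose in both lines (log2 0.54 in H1650 and 0.36 in A549, edgeR adjusted p at most 7.16e-10). NAB2, a corepressor that EGR1 induces and that restrains it, averaged 57.3 ± 6.85 CPM in H1650 SRSF2 and 78.2 ± 2.54 CPM in untreated H1650 cells (log2 -0.45, SE 0.06, edgeR adjusted p = 8.04e-08). In A549, NAB2 averaged 24.1 ± 1.39 CPM with SRSF2 and 27.3 ± 1.84 CPM without (log2 -0.18, edgeR adjusted p = 0.0643). PDGFA and PDGFB also fell in H1650 (log2 -0.26 and -0.40, edgeR adjusted p at most 5.31e-05). EGR2, EGR3 and EGR4 were not analysed here, and of the related genes NAB1 and WT1 neither passed the test in either line (edgeR adjusted p from 0.0712 to 0.844).

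Of 9 factors that act on AU-rich messenger RNA, 2 were called higher and 6 lower in H1650, and 1 higher and 2 lower in A549. Of all genes, 31.0% were called higher and 31.3% lower in H1650, and 16.4% higher and 15.9% lower in A549. ELAVL1, which stabilises such RNAs, averaged 59.97 ± 0.975 CPM in H1650 SRSF2 and 91.6 ± 0.717 CPM in untreated H1650 cells (log2 -0.61, SE 0.04, edgeR adjusted p = 7.60e-15). ZFP36L1, a decay factor, rose in both lines (log2 0.75 in H1650 and 0.35 in A549, edgeR adjusted p at most 4.89e-08). IER5 is known to act on heat shock genes, a link that was not tested here. Of 12 heat shock genes, 3 were called higher and 6 lower in H1650, against 31.0% and 31.3% of all genes. In A549, 1 was called higher and 11 lower, against 16.4% and 15.9% of all genes. The median log2 fold change of the list was -0.07 in H1650 and -0.21 in A549. HSPA8 fell in both lines (log2 -0.56 in H1650 and -0.30 in A549), as did DNAJB1 (-0.53 in H1650 and -0.36 in A549) and BAG3 (-0.56 in H1650 and -0.15 in A549), with edgeR adjusted p of at most 0.00426.

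Among the 9 genes themselves the profiles over the 12 libraries fell between 2 extremes, given here as a description of log2 CPM in libraries that form 4 groups. KLF4 and IER3 were the most alike pair (Pearson r 0.997), followed by KLF10 and ARC (0.971). KLF5 and IER5 were the least alike (r -0.33), and KLF5 had no r above 0.546, which it reached with EGR1. Over all genes tested outside the 9, those most like EGR1 were PTPN23 (r 0.986), FOSL2, DAGLB, TMEM39A and MBD6 (0.981). The fold range of these genes was far smaller, FOSL2 averaging 288.2, 225.8, 249.6 and 168.6 CPM in H1650 SRSF2, untreated H1650, A549 SRSF2 and untreated A549 cells. Those most like KLF4 were BCL10 (r 0.998), SH3KBP1, PIP5K1A, KLF3 and MAP2K1 (0.997), and those most like IER2 were CD55 (0.987), MAP3K10, C3orf38 and FICD (0.982). ARC was most like TNFAIP3 (r 0.994), JUN, ISG20, EWSR1 and CNST (0.993). TNFAIP3 averaged 294.5 CPM in H1650 SRSF2, 40.3 in untreated H1650, 37.9 in A549 SRSF2 and 21.5 in untreated A549 cells. The ARC libraries of untreated H1650 and A549 SRSF2 cells overlapped, so ARC gave no order between those groups.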

How the data were processed

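Polyadenylated RNA of A549 and H1650 cells, untreated or over-expressing SRSF2, was sequenced by the authors in 12 libraries, which were grouped by their labels. Libraries sharing a replicate number were not treated as pairs: residual correlations between libraries of the same number ran from -0.03 to 0.04. The authors deposited raw counts per gene. The submitters' processing notes name GRCh38, featureCounts 2.0.0, STAR 2.7.7a and fastp 0.20.1. Annotation release and strandedness are not given in the sources used here. The authors' FPKM values, derived from these counts, served in alternatives only.

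The counts were analysed in R 4.3.3 with edgeR 4.0.16, using filterByExpr (15991 of 16599 genes), TMM factors and 1 quasi-likelihood model for all 12 libraries with a mean for each group. SRSF2 was compared with untreated cells per line, then the response in H1650 with that in A549, and last the untreated lines with each other. Benjamini-Hochberg adjustment ran over all genes tested, with calls under 0.05. The SE was worked back from the F statistic and is approximate. The counting error of a fold change is the Poisson error of the summed counts. The procedure was tested on simulated counts with the same spread in every group and few genes changed. The larger spread of the H1650 SRSF2 group and the wide shift in that line were therefore not covered.

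The 9 genes and the lists were chosen with earlier results of these data known. For each list, up to 6 genes with the smallest adjusted p in either line could be named, and for EGR1, KLF4, IER2 and ARC the 5 genes with the highest Pearson correlation. Some genes that this rule gives are not reported here. Symbols came from a gene name table (16076 IDs) and GENCODE 29 (63), and 460 IDs have none. Promoters are from RefSeq, GRCh38.p14. Alternatives were other scaling, no filter on low counts, a replicate block, a test against a log2 change of 1, only the libraries compared, DESeq2 1.42.0, limma-trend 3.58.1 on log2 FPKM with pseudocounts of 1 and 0.1, and leaving out each library in turn.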

Additional observations from a re-analysis of the deposited data

Results flagged for a closer look

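A test of the difference between the lines in their response to SRSF2 over-expression passed for each of the 9 genes (edgeR adjusted p of at most 8.15e-05), in a comparison that called 47.5% of all genes. The log2 response in H1650 minus that in A549 was 3.37 for ARC, 2.37 for KLF4, 1.70 for KLF10, 0.97 for IER5, 0.95 for IER3, 0.92 for IER2 and 0.49 for KLF6. It was -0.32 for KLF5 and -2.53 for EGR1. EGR1 and ARC had log2 responses above 1 in both lines, the larger one in A549 for EGR1 and in H1650 for ARC. The ARC response in A549 rests on 13 to 45 counts a library. It did not pass the test against a log2 change of 1, and was 0.21 on log2(FPKM + 1). The untreated EGR1 level was 14.8 CPM in H1650 and 0.835 CPM in A549, and the part of that level in the difference was not tested.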

How the results depend on the processing

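No result changed direction under any alternative. Of 747 values recomputed, 715 kept their side of the threshold and 32 lost their call. Against a log2 change of 1 rather than 0, the counts of genes called were 705 in H1650, 63 in A549, 394 between the responses and 5188 between the untreated lines, and of the 9 genes 1 (EGR1) passed in A549, 7 in H1650, 4 for the difference and 3 in the untreated lines, since that test asks for a larger change. With 1 library left out at a time, between 7 and 9 of the 9 genes were called in A549 and 8 and 9 in H1650. For the difference 9 of them were called, and 7 and 8 between untreated lines. Over all genes, these runs called 4188 to 5510 in A549 and 9297 to 9977 in H1650. They called 7149 to 7654 genes for the difference and 12963 to 13382 between untreated lines. With a replicate block 5146 genes were called in A549, 9919 in H1650, 7589 for the difference and 13150 between untreated lines, and of the 9 genes 9, 9, 9 and 8. No scaling moved the median of all genes by more than 0.08 on the log2 scale. Depth limits ARC in 3 groups and EGR1 in untreated A549 cells, where a library held 13 to 45 and 21 to 29 counts.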
